A study of Mus musculus with 4 samples.

Results

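Cells that the authors had named GOBLET-PRE, here taken as goblet precursors, were described from single-cell RNA libraries of mouse duodenal crypts. They were chosen as every cell whose deposited cell type name is GOBLET-PRE, and they numbered 3791 of the 15234 named cells. WT replicates 1 and 2 gave 1281 and 1247 of them, and APC-KO replicates 1 and 2 gave 184 and 1079. The WT mice carried Atoh1CreER-T2 and the R26RTom reporter. The APC-KO mice carried floxed Apc alleles (Apcfl/fl) in addition, with the driver written as Atoh1Cre in their sample labels and as Atoh1CreER-T2 in the series design. All groups, controls included, received tamoxifen in 2 doses of 1 mg/mL given 24 h apart, and crypt cells were harvested 12 h after the last dose. TOM+ cells were sorted, so only cells that had switched on the reporter, or descended from such cells, could enter a library, and recombination was limited to cells in which the Atoh1 driver was active. The labels name no animal, sex or batch for a library, so p-values below rest on 2 libraries per genotype, whose spread may be technical. In the tests of single genes the spread is partly borrowed across genes.

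Goblet cells are the mucus-producing cells of the gut lining. They arise from crypt progenitors that switch on the transcription factor Atoh1, and while they mature they fill with granules of the gel-forming mucin Muc2, which is folded in the endoplasmic reticulum (ER), glycosylated in the Golgi and stored with other proteins such as Clca1, Fcgbp, Tff3 and Zg16. Apc is a scaffold of the complex that degrades beta-catenin, and its loss switches on Wnt target genes.

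The libraries were uneven. The kept cells numbered 4814 and 3821 in WT, 356 in APC-KO replicate 1 and 6243 in APC-KO replicate 2. GOBLET-PRE cells had a median of 5311 and 5747 UMIs (unique molecular identifiers, each standing for 1 captured transcript) in WT, 10214 in APC-KO replicate 1 and 3996 in APC-KO replicate 2. APC-KO replicate 1 therefore stood apart in both cell number and depth. The kept cells all had under 3000 genes, and 22.3% of its GOBLET-PRE cells had 2900 or more, against 0.390% or less in the other libraries. The pairs of libraries shared between 1 and 8 cell barcodes among kept cells, and GOBLET-PRE cells shared 1. The sums of UMIs over GOBLET-PRE cells ran from 1781666 to 6981409 per library, and values below are UMIs per 1000000 UMIs of such a sum (CPM). The targeted gene Apc had WT values of 83.7 and 73.3 CPM and APC-KO values of 83.1 and 91.7 CPM in these cells, with overlapping groups. The deleted exons are not given in the sources used here and 3′ tags may lie outside them, so this does not check the labels.

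The goblet markers fitted the name and placed these cells between the names GP and GOBLET. Summed over Muc2, Tff3, Fcgbp, Spink4 and Clca1, GOBLET-PRE had 82932 to 136073 CPM over the libraries, GP 42128 to 72893 and GOBLET 133307 to 206366. In PANETH-PRE the same sum was 44303 to 74904 CPM, near that of GP. It was 2361 to 17178 CPM in TUFT cells, a name that should lack these transcripts. Muc2 had WT values of 9145 and 8271 CPM and APC-KO values of 8025 and 8786 CPM. In GP it had 4787, 3959 and 4370 CPM, and in GOBLET 15180 to 21010 CPM, so the 3 names did not overlap for this gene.

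Zg16, a lectin of the mucus layer (ENSMUSG00000049350, chromosome 7, 127050156 to 127087328, GENCODE vM21), differed more between the names than the 5 markers did. In GOBLET-PRE it had WT values of 55790 and 60350 CPM and APC-KO values of 53750 and 44840 CPM. GP had 5962, 6702 and 7827 CPM. GOBLET had WT values of 239000 and 306000 CPM and APC-KO values of 171200 and 203900 CPM, which is a large share of every transcript counted in those cells. Clca1, a secreted protease of the mucus, had WT values of 5465 and 8651 CPM and APC-KO values of 6435 and 5220 CPM, above 1207 to 2094 CPM in GP and below 12730 to 18190 CPM in GOBLET.

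Not every goblet gene followed this order. Spink4, a small secreted protease inhibitor, had 26980 and 13540 CPM in the WT libraries of GOBLET-PRE and 28850 and 39560 CPM in APC-KO. Within each library that was above GOBLET, with 11840, 6922, 9843 and 16450 CPM in the same order. It was also above GP in the 3 libraries with at least 20 GP cells. PANETH-PRE cells had more Spink4 than GOBLET-PRE in both WT libraries, at 49500 and 26800 CPM. Agr2, the ER enzyme that assists mucin folding, had 19580, 22590, 17090 and 10280 CPM in GOBLET-PRE against 10680, 11990, 6058 and 5038 CPM in GOBLET.

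**Figure D1:**
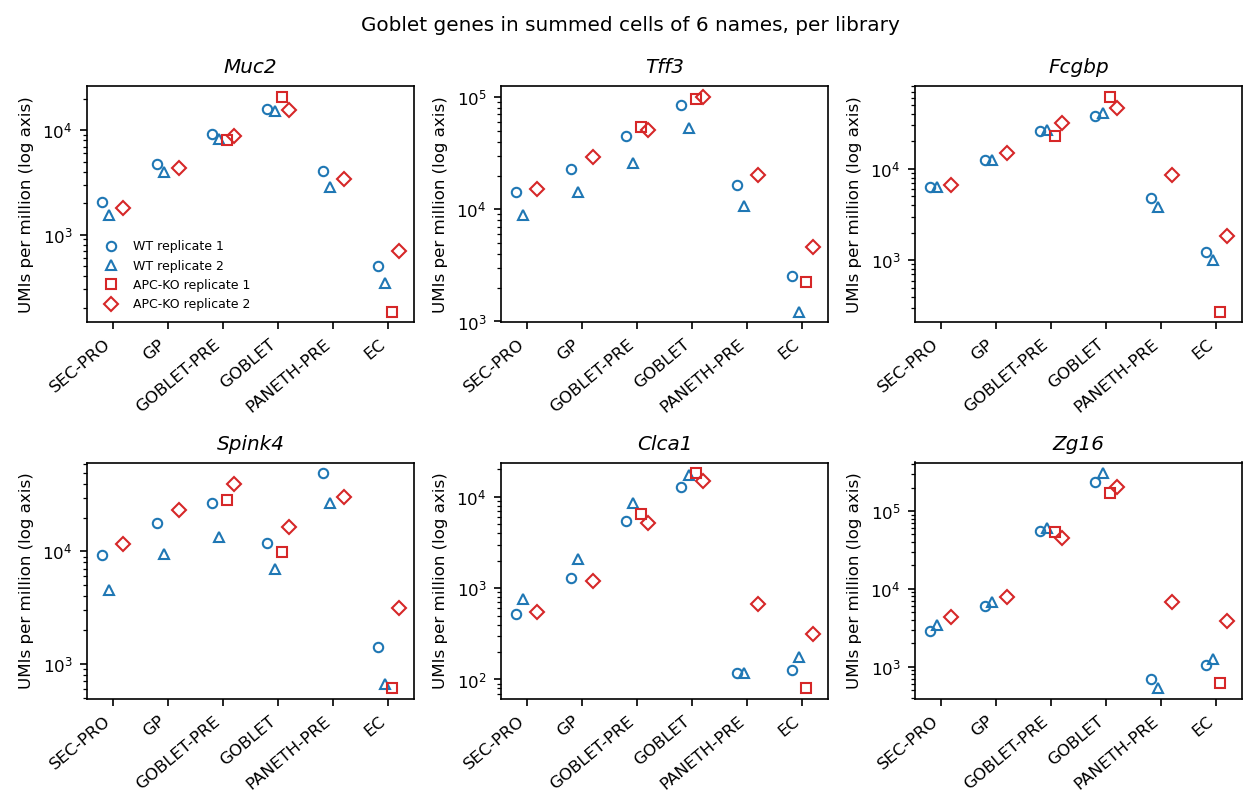
CPM (log axis) of the 5 goblet markers and Zg16 in the summed cells of 6 names, with 1 point per library and WT in blue, APC-KO in red. APC-KO replicate 1 is drawn only for names with at least 20 cells. Zg16 steps up from GP to GOBLET-PRE and again to GOBLET, while Spink4 is lower in GOBLET than in GOBLET-PRE in all 4 libraries.

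Transcripts of other cell types were present at low levels. The defining Paneth markers Lyz1, Defa24, Defa17, Mmp7 and Itln1 summed to 5265 to 14796 CPM in GOBLET-PRE. They summed to 5064 to 9208 CPM in GP and 4264 to 7302 CPM in SEC-PRO. In the WT libraries GP had more than GOBLET-PRE, at 7687 and 9208 CPM against 6751 and 5265 CPM. In APC-KO replicate 2 GOBLET-PRE had 14796 CPM, above 5064 CPM in GP and 7302 CPM in SEC-PRO. TUFT had 2020 to 3721 CPM and PANETH 269901 to 386538 CPM. At least 1 UMI of the Paneth markers was found in 99.6% or more of GOBLET-PRE cells of each library (median 3996 to 10214 UMIs). The same held for 96.4% to 100% of TUFT cells (median 2676 to 4643 UMIs), so a UMI alone does not set GOBLET-PRE apart. The part of free RNA was not tested. None of the 5 Paneth markers was at 0 in any library. Enterocyte markers summed to 60.6 to 172 CPM, enteroendocrine markers to 24.1 to 206 CPM, stem cell markers to 18.5 to 102 CPM, tuft markers to 3.93 to 10.97 CPM and immune markers to 0.561 to 3.31 CPM. At 0 in APC-KO replicate 1 were 4 of the 5 immune, 3 of the 5 stem and 2 of the 5 tuft markers. In the other libraries 0, 1 or 2 of the immune markers and none of the others were at 0.

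Across genes, the profile of GOBLET-PRE was closest to GP, with Pearson's r on log2 values of 0.975 to 0.976 in the 3 libraries with at least 20 GP cells. It was 0.866 to 0.937 with GOBLET (4 libraries), 0.906 to 0.951 with PANETH-PRE (3 libraries) and 0.905 to 0.908 with SEC-PRO (3 libraries). With EC it was lowest, at 0.676 to 0.770. Both sums of a pair share the library, and genes are not independent, so these values describe likeness only.

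The next values set GOBLET-PRE against GP and against GOBLET within each library. The ratio was taken on (CPM + 10), on the log2 scale, which understates differences of low genes. Since the names came from the same expression values, no test was made. APC-KO replicate 1 had 7 GP cells and was left out of the comparison with GP.

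Against GP, 28 of 7711 genes (0.363%) were at least 2-fold higher in all 3 libraries and 4 (0.0519%) at least 2-fold lower. The higher genes included mucus proteins, detoxifying enzymes and interferon-induced genes. Gsta4, a glutathione S-transferase that clears lipid peroxidation products (ENSMUSG00000032348, chromosome 9, 78182774 to 78209349), had 408, 512 and 255 CPM in WT replicates 1 and 2 and APC-KO replicate 2, against 50.2, 65.3 and 35.7 CPM in GP. Its mean log2 ratio was 2.71 (SD 0.15, n = 3). A second enzyme of that family, Gsta1, had a mean log2 ratio of 2.60 (SD 0.38). Clca1 and Zg16 stood at 2.08 and 2.97.

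Further genes above GP by the same rule were Krt20, a keratin of differentiated gut epithelium, at 1.69, S100a6, a calcium-binding protein, at 1.65, Clec2h, a C-type lectin, at 1.96, and Rgs2, a brake on G protein signalling, at 1.74. Ddx60, a helicase of the antiviral response, was at 2.05 and Isg15, a ubiquitin-like antiviral modifier, at 1.96. Isg15 had 206, 76.5 and 42.6 CPM in GOBLET-PRE and 26.7, 16.6 and 7.14 CPM in GP, so the libraries differed among themselves while the order of the names held in each.

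The 4 genes lower than in GP were Hmgn2 (mean log2 ratio -1.36), Hmgn1 (-1.26), Clca3b (-1.73) and Fam213a (-1.67). Hmgn1 and Hmgn2 encode nucleosome-binding proteins. Next in order, short of 2-fold in at least 1 library, came the histone chaperone Nap1l1 (-1.25), the chromatin protein Hmgb1 (-0.99), Ppp1r14b, a phosphatase inhibitor (-0.96), the mitochondrial protein C1qbp (-0.97), the class II histocompatibility gene H2-Eb1 (-0.95) and the chemokine Ccl9 (-1.13).

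Against GOBLET, 258 of 7339 genes (3.52%) were at least 2-fold higher in all 4 libraries and 48 (0.654%) at least 2-fold lower. That split moved with the scaling. The mucus genes took so many UMIs in GOBLET that the median log2 ratio of all genes was 0.37. With the 23 goblet secreted and mucus genes left out of the totals, an alternative chosen after seeing the data, the median was 0.02 and 136 genes were higher and 157 lower. The comparison with GP was touched less, with a median of -0.15 that became -0.02, and 40 genes higher and 3 lower.

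Enzymes of protein folding in the ER were among the genes higher than in GOBLET. Pdia5, a disulfide isomerase of the ER (ENSMUSG00000022844, chromosome 16, 35397312 to 35490873), had 208, 229, 199 and 213 CPM in GOBLET-PRE (the WT libraries first, then APC-KO, each in replicate order, as in the other sets of 4 values), against 28.4, 29.7, 29.4 and 37.7 CPM in GOBLET. The 4 libraries lay close together within each name, and the mean log2 ratio was 2.43 (SD 0.16, n = 4). Fkbp11, a prolyl isomerase of the ER, had a mean log2 ratio of 2.47 (SD 0.25). Rnase1, a secreted ribonuclease, was at 2.67, the chemokine Ccl9 at 2.84 and Hpd, an enzyme of tyrosine breakdown, at 2.52.

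Growth genes followed. The ribosomal proteins Rps18 and Rpl12 were at 2.43 and 2.55, the cyclin Ccnd1 at 2.28 and Nme1, a nucleoside diphosphate kinase, at 2.32. Cyr61, a matricellular protein and target of the Hippo pathway, was at 2.56.

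The gene furthest below GOBLET by the least favourable library was Ido1. Ido1, which breaks down tryptophan and is induced by interferon (ENSMUSG00000031551, chromosome 8, 24584136 to 24597009), had 14.0, 11.3, 12.3 and 5.96 CPM in GOBLET-PRE and 391, 653, 1680 and 210 CPM in GOBLET. Every GOBLET library was above every GOBLET-PRE library, with a mean log2 ratio of -4.76 (SD 1.11). Lgals3, a galectin, was at -3.04, S100a6 at -2.49 and Mxd1, an antagonist of Myc, at -2.42. The others were Rbp2, a retinol carrier (-2.26), the membrane mucin Muc3 (-2.46), Espn, which bundles actin in microvilli (-2.19), Ttyh1 (-2.30), Clec2h (-1.91) and the chemokine Cxcl16 (-1.83). S100a6 and Clec2h thus lay above GP and below GOBLET.

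Gene lists were read against all genes measured. Of these, 14.0% were above and 53.9% below GP in all 3 libraries, and 51.1% were above and 8.69% below GOBLET in all 4. In the 76 cytosolic ribosomal proteins, a list added after values were seen, the median log2 ratio was -0.51 against GP and 1.96 against GOBLET. All 76 were below GP in every library and all 76 above GOBLET, 75 of them at least 2-fold, against 3.52% of all genes. Without mucus genes in the totals the medians were -0.34 and 1.49. The S phase list had 14 of 14 measured genes below GP in all 3 libraries, against 53.9% of all genes, with a median of -0.49. The stem cell list had 9 of 12 below GP and 0 above (median -0.62), and 7 of 9 above GOBLET (median 0.64), where 53.9% and 51.1% of all genes lay on those sides. Sox9, a progenitor transcription factor and Wnt target, had 80.4 and 85.1 CPM in WT GOBLET-PRE and 121 and 85.9 CPM in APC-KO, below 142 to 191 CPM in GP and above 9.20 to 20.4 CPM in GOBLET.

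The ER folding list, with chaperones, isomerases and unfolded protein response genes, was near GP and above GOBLET. Its median was -0.09 against GP, with 7 of 42 genes above and 22 below in every library, and 1.06 against GOBLET, with 38 of 42 above. The counts against GP are close to the shares of all genes (14.0% above, 53.9% below), and 51.1% of all genes were above GOBLET. Hspa5, the main chaperone of the ER, had 2935, 3351, 2211 and 2572 CPM in GOBLET-PRE and 1123, 980, 1200 and 914 CPM in GOBLET. With mucus genes left out the list's medians were 0.08 and 0.62, so its sign against GP changed with the scaling.

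Stress lists stood apart from GOBLET in the same direction. The immediate early list, with the fast-induced factors Fos, Jun and Egr1, had a median of 1.34 against GOBLET, with 18 of 28 genes above in all 4 libraries and 10 at least 2-fold, and 0.32 against GP, with 14 of 29 above in all 3. Of all genes, 51.1% were above GOBLET, 3.52% at least 2-fold, and 14.0% were above GP in this way. The count of 18 is thus not far from the background, while the count of 10 lies above it. Jun had 1269, 1725, 1532 and 1559 CPM in GOBLET-PRE, 74.0, 70.1, 602 and 124 CPM in GOBLET, and 1446, 1327 and 1094 CPM in GP. In the ER stress list, with the factors Atf4 and Ddit3 (CHOP), the medians were 1.04 and 0.32, with 7 of 10 genes above GOBLET and 5 of 10 above GP in every library. The 15 measured heat shock genes were all above GOBLET in every library (median 1.3), and 13 of 16 were below GP in every library (median -0.38), against 51.1% and 53.9% of all genes. Hsp90ab1, the constitutive cytosolic chaperone of this list, had 1197, 1371, 1231 and 1255 CPM in GOBLET-PRE, between 2244 to 2601 CPM in GP and 299 to 483 CPM in GOBLET.

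Interferon-induced genes had the reverse order. Their median was 0.58 against GP, with 23 of 27 measured genes above in every library, and -0.58 against GOBLET, with 15 of 32 below and 2 above in every library. Of all genes, 14.0% were above GP and 8.69% below GOBLET in this way. The 36 listed genes summed to 3984 and 3060 CPM for WT and 3482 and 2694 CPM for APC-KO. GP had 1942, 1589 and 1605 CPM, and GOBLET 5517, 5069, 9574 and 4424 CPM. Ifi27l2b, the most abundant of them, had 1820, 1639, 1392 and 1251 CPM in GOBLET-PRE, 669, 557 and 537 CPM in GP and 2126 to 2850 CPM in GOBLET, so the 3 names did not overlap. The enterocyte list had a similar order, with medians of 0.24 and -0.60. Mucin O-glycosylation genes, which attach the sugars of the mucins, had medians of 0.01 and 0.19, where all genes had -0.15 and 0.37. With mucus genes left out of the totals their medians were 0.19 and -0.22. Of 27 genes, 17 were then above GP and 14 below GOBLET in every library, against 28.0% and 23.5% of all genes. The sign of this list against GOBLET thus changed with the scaling.

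**Figure D2:**
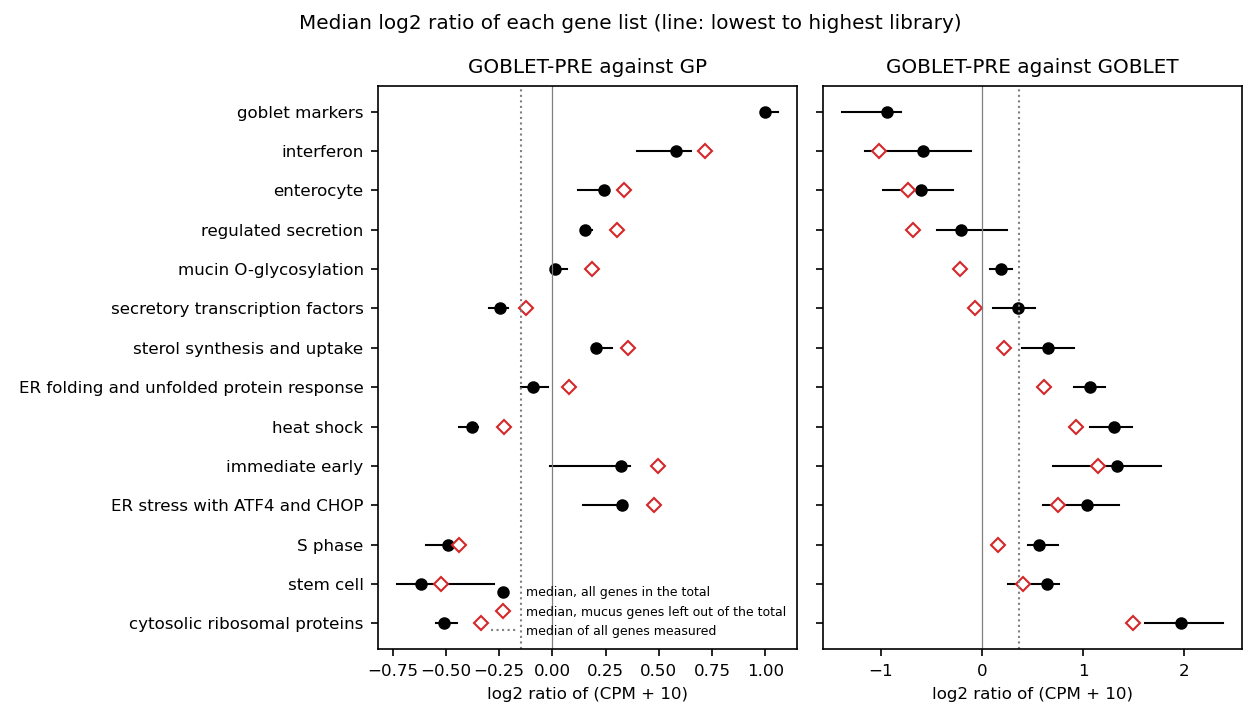
Median log2 ratio of (CPM + 10) of GOBLET-PRE to GP (left, 3 libraries) and to GOBLET (right, 4 libraries) for 14 gene lists. Points are medians over a list's genes, lines run from the lowest to the highest library, open diamonds are medians with mucus genes left out of the totals (not computed for the goblet markers), and dotted lines are medians of all genes. Ribosomal proteins lie below GP and above GOBLET, and interferon genes above GP and below GOBLET.

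Few genes reached their highest level in GOBLET-PRE. Ratios to the next name are on (CPM + 10). Among names with at least 20 cells in a library, 54 of 7119 genes (0.759%) were highest there in all 4 libraries, 35 of them with a mean of at least 50 CPM. In APC-KO replicate 1 only EC and GOBLET could be compared, and without this library 97 genes were highest, without APC-KO replicate 2 93. Scin, an actin-severing protein of secretory cells (ENSMUSG00000002565, chromosome 12, 40059769 to 40134228), had WT values of 838 and 1300 CPM and APC-KO values of 794 and 857 CPM, and was 1.29 to 2.30 times the next name. Klk1, a secreted kallikrein protease, had 1085, 1156, 626 and 910 CPM and was 1.29 to 1.78 times GOBLET, the next name in each library. Rep15, a partner of a Rab protein of membrane traffic, was 1.22 to 1.49 times the next name, and Cgref1 1.23 to 1.34 times.

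A pair of genes of growth signalling belonged to this set. Areg, a ligand of the epidermal growth factor (EGF) receptor (ENSMUSG00000029378, chromosome 5, 91139599 to 91148432), had WT values of 200 and 430 CPM and APC-KO values of 202 and 133 CPM. It was 2.09, 2.76, 1.24 and 2.15 times the next name. Cyr61 had 76.2, 149, 99.9 and 65.2 CPM and was 1.32 to 2.11 times the next name. Hbegf, another EGF receptor ligand, had 125, 236, 106 and 140 CPM and was 1.06 to 2.35 times the next name, with EC next in 3 libraries. The other ligands did not follow: Btc had 13.7, 19.2, 14.6 and 17.9 CPM in GOBLET-PRE and 47.9 to 97.9 CPM in GOBLET, and Tgfa 8.42 to 13.2 CPM against 12.2 to 18.5 CPM. The EGF ligand list was added after values were seen.

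Cholesterol synthesis genes recurred. Of 26 measured genes of sterol synthesis and uptake, a list drawn up after this pattern was seen, 9 were highest in GOBLET-PRE in all 4 libraries, against 0.759% of all genes. Among them were Mvk, Mvd, Idi1, Fdps and Fdft1 of the early and middle steps, Cyp51 and Msmo1 of the late steps, and Insig1, which holds back the pathway when sterols are plentiful. Cyp51 had 260, 328, 211 and 244 CPM and was 1.16 to 1.37 times the next name. In the library with the smallest margin, the 9 genes' named members lay between 1.003 (Mvd) and 1.16 times (Fdft1) the next name. Mvk was at 1.01 and Idi1 at 1.06 there, so the margins were small. Hmgcs1, an early enzyme of the pathway, was not highest in all 4 libraries. It had 520, 600, 376 and 499 CPM in GOBLET-PRE and 346, 348, 402 and 406 CPM in GOBLET, so it was below GOBLET in APC-KO replicate 1. Hmgcs1 was singled out after its values were seen.

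Over the whole list the sum was 3003 and 3577 CPM for WT and 2664 and 2877 CPM for APC-KO. On totals that include mucus genes, it was above every other name with at least 20 cells in the same library. GP had 2436, 2866 and 2386 CPM, and GOBLET 1757, 1874, 1993 and 2123 CPM. SEC-PRO had 2215, 2521 and 2032 CPM, and ISC 1315, 1329 and 1120 CPM. These sums were not recomputed without mucus genes in the totals. Against GOBLET, the list's median log2 ratio was 0.65, with 20 of 26 genes above in every library (51.1% of all genes). Without mucus genes in the totals it was 0.22, with 12 of 26 above (25.0% of all genes). With mucus genes left out of the totals, 5 sterol genes were highest in all 4 libraries, among 67 genes of which 21 were in the set of 54. With cells thinned to 2000 UMIs, 5 sterol genes were highest, among 41 genes of which 28 were in that set. Scd2, a fatty acid desaturase, was also highest, at 1.18 to 6.57 times the next name, the last in APC-KO replicate 1 against GOBLET.

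**Figure D3:**
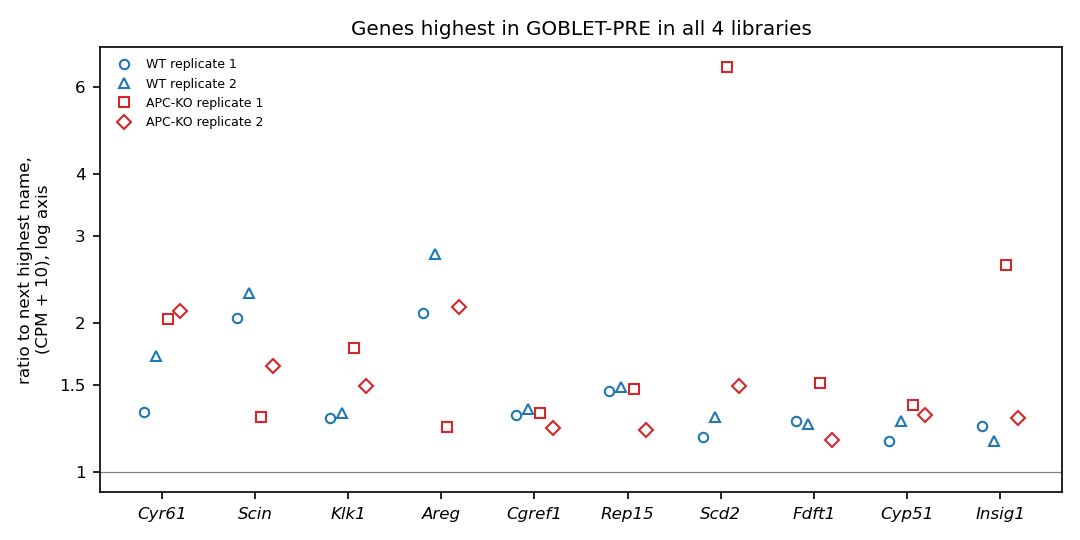
Ratio of (CPM + 10) in GOBLET-PRE to the next highest name in the same library (log axis) for the 10 genes named by rule, 1 point per library, WT in blue and APC-KO in red. All points lie above 1, and most lie below 2.

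Cells within the name differed widely. Each cell was thinned to 2000 UMIs, leaving out 39 shallower cells (18, 6, 2 and 13 by library), and the share of its UMIs from a list was measured. Goblet secreted and mucus genes took 11.5% at the lowest decile, 19.5% at the median and 30.1% at the highest decile in WT replicate 1. The medians were 17.1% in WT replicate 2, 19.8% in APC-KO replicate 1 and 20.1% in APC-KO replicate 2. The coefficient of variation beyond multinomial sampling was 0.36, 0.41, 0.39 and 0.36. Zg16 had the highest variance relative to its mean UMI count of the named genes, with a median of 77.3 over libraries, against 1.06 for the median of 1060 genes. Defa24 (70.7), Reg3b (17.8), Spink4 (16.8), Itln1 (14.1), Tff3 (13.3), Fcgbp (11.8), Reg3g (8.85), Clca1 (7.90) and Agr2 (7.66) came next. They are goblet, Paneth and antimicrobial genes. At equal spread relative to the level, this measure is larger for abundant genes, and Zg16 averaged 87.8 to 118.7 UMIs per thinned cell over the libraries. It therefore does not rank genes by spread relative to their level.

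Immediate early genes spread more, relative to their level, than mucus genes, and ER folding genes less. Immediate early genes took 0.1%, 0.6% and 2.25% of UMIs at the lowest decile, the median and the highest decile in WT replicate 1. In WT replicate 2 the values were 0.15%, 1.3% and 2.65%, in APC-KO replicate 1 0.2%, 1% and 2.05%, and in APC-KO replicate 2 0.1%, 0.875% and 1.95%. Other names in WT replicate 1 had 0.2%, 0.9% and 2.35% (EC), 0.25%, 0.8% and 1.6% (GP) and 0.06%, 0.2% and 0.4% (GOBLET). A wide range was thus also seen in EC. The coefficient of variation beyond sampling was 0.91, 0.72, 0.65 and 0.71. For the ER stress list it was 0.96, 0.72, 0.72 and 0.82, for heat shock 0.44, 0.49, 0.35 and 0.34, and for ER folding 0.28, 0.26, 0.23 and 0.26. Interferon genes had 0.83, 0.69, 0.46 and 0.48.

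Paneth genes had a coefficient of variation beyond sampling of 2.26, 1.63, 1.71 and 1.70, and their 5 defining markers alone one of 2.78, 2.12, 2.01 and 1.83. Their share at the highest decile was 1.65%, 1.5% and 2.53% in the first 3 libraries and 4.25% in APC-KO replicate 2, with medians of 0.35% to 0.5%. For the 5 defining markers, the highest decile in WT replicates 1 and 2 was 1.3% and 1%, below 1.82% and 1.45% in GP. In APC-KO replicate 2 it was 4.025%, above 1.065% in GP. Itln1 and Ang4 are in both the Paneth and the mucus list. No doublet caller was run.

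**Figure D4:**
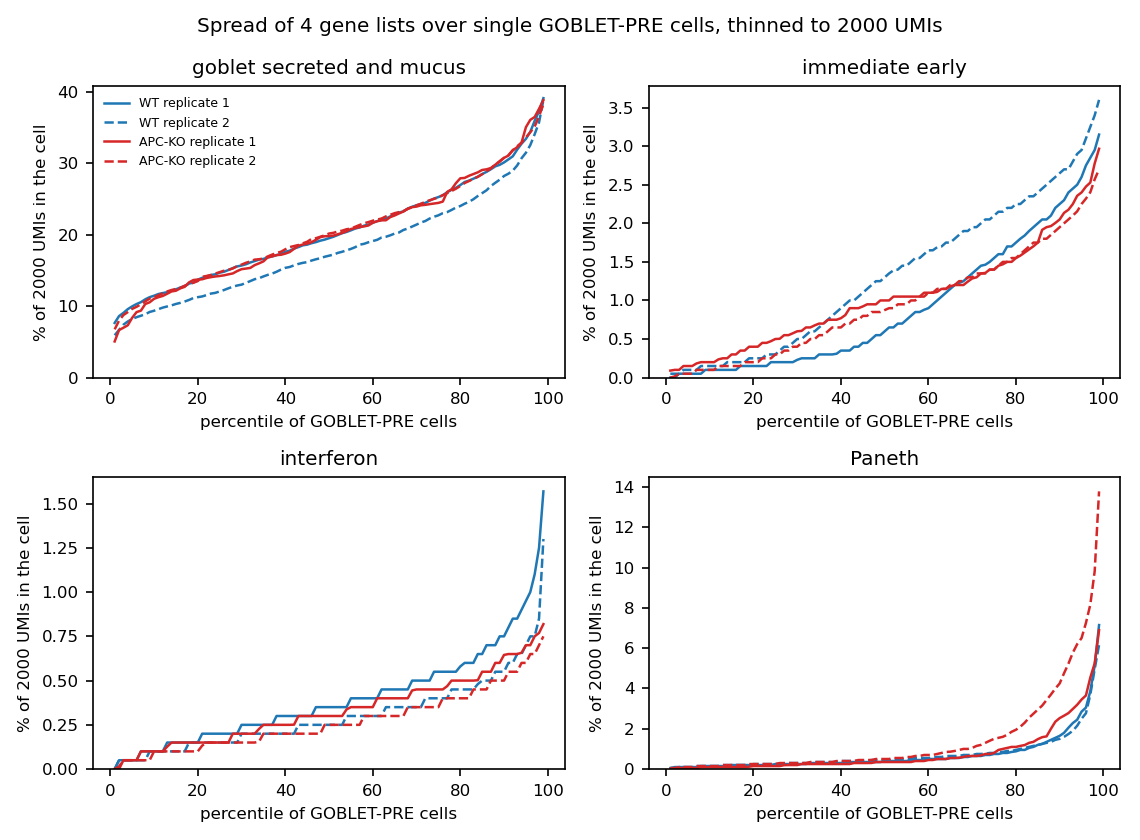
Percent of 2000 UMIs per GOBLET-PRE cell from 4 gene lists, against the percentile of cells, with WT in blue, APC-KO in red, replicate 1 solid and replicate 2 dashed. Mucus genes rise steadily over the cells, immediate early genes differ in shape between WT replicates, and Paneth genes reach their highest upper decile in APC-KO replicate 2.

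The cells of each library were ordered by their mucus share into 3 equal groups. The highest was compared with the lowest in the UMIs outside the mucus genes. Whether this order follows maturation was not tested, and the list includes Agr2 and Ccl9, which were lower in GOBLET than in GOBLET-PRE in every library. The groups had similar median depth in WT replicate 1, at 5355 and 5299 UMIs, while in APC-KO replicate 1 it was 11684 and 9514. Interferon genes were higher in mucus-rich cells, by 1.00 and 1.39 on the log2 scale in WT and by 1.44 and 0.79 in APC-KO. Their share went from 0.367% to 0.732% of those UMIs in WT replicate 1. Enterocyte genes were higher by 0.57 to 0.68 and regulated secretion genes, which act in granule release, by 0.33 to 0.52. Sterol genes were higher by 0.15 to 0.46.

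Other lists ran the opposite way. Heat shock genes were lower in mucus-rich cells in all 4 libraries, with log2 differences of -0.50, -0.47, -0.64 and -0.46. Ribosomal proteins were lower as well, at -0.35, -0.47, -0.38 and -0.26, and Wnt targets at -0.69, -0.78, -1.33 and -0.17. The secretory transcription factors hardly differed, with values from 0.02 to 0.07. Immediate early genes had -0.51, -0.52, 0.17 and -0.21, and Paneth genes 1.35, 0.99, -0.45 and 1.58, so APC-KO replicate 1 went the other way for both. These are descriptions of the cells of each library, ordered on genes of the same cells.

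Across cells within a library, the immediate early share went with that of the EGF ligand list, with Pearson's r of 0.52 and 0.53 in WT and 0.60 and 0.42 in APC-KO. With the ER stress list, after shared genes were removed, r was 0.31, 0.35, 0.26 and 0.32. With interferon genes it was 0.01, -0.19, 0.19 and -0.11. The cells number 182 to 1263 per library, and the shares in 1 cell come from the same 2000 UMIs.

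The genotypes were compared by libraries. GOBLET-PRE made up 26.6% and 32.6% of kept cells in WT (exact Clopper-Pearson 95% intervals 25.4% to 27.9% and 31.1% to 34.1%) and 51.7% and 17.3% in APC-KO (46.4% to 57.0% and 16.4% to 18.2%). These intervals cover counting error only. The APC-KO libraries lay on both sides of WT, with a mean of 34.5% ± 24.3 (SD, n = 2) against 29.6% ± 4.26. The difference of 4.86 percentage points had p = 1 (exact permutation over libraries, two-sided, where 0.33 is the smallest p possible). It was -12.3 points without APC-KO replicate 1. Of the cells named GP, GOBLET-PRE or GOBLET, GOBLET-PRE made up 57.5% and 58.5% in WT and 84.0% and 60.3% in APC-KO. The sort, the capture and the choice of kept cells bear on all of these shares.

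In the sums of UMIs, 1 of 10272 genes (0.00974%) passed the threshold between genotypes in edgeR's quasi-likelihood test with Benjamini-Hochberg adjustment at 0.05, and 817 had an unadjusted p under 0.05. A sum does not tell fewer expressing cells from less RNA per cell. St6galnac1, a sialyltransferase that caps mucin sugars (ENSMUSG00000009588, chromosome 11, 116765025 to 116775507), was counted with 1 UMI per WT library, while APC-KO replicate 1 gave 19 UMIs and replicate 2 gave 60. The groups did not overlap. The ratio of pooled CPM was 85.4, and its exact 95% interval, which covers counting error only, ran from 22.9 to 717. The adjusted p was 0.0257 (edgeR). The number of genes past the threshold changed with the libraries used. Leaving out WT replicate 1 gave 64 and leaving out WT replicate 2 gave 22. Dropping APC-KO replicate 1 gave 47 and dropping APC-KO replicate 2 gave 7, while the DESeq2 Wald test on all libraries gave 38. St6galnac1 did not pass without APC-KO replicate 2 (adjusted p = 0.107, edgeR) nor with free RNA subtracted (adjusted p = 0.172, edgeR). Its fitted log2 fold change was 6.26, and 6.13 and 8.92 in those settings. With 1 UMI per WT library the size of the fitted fold is uncertain in every setting. The part of free RNA was not tested beyond this subtraction.

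The 5 markers did not pass. Tff3 had WT values of 45360 and 25650 CPM and APC-KO values of 54640 and 50850 CPM, or 0.68 (SE 0.44) as a log2 fold change. Spink4 had a log2 fold change of 0.85 (SE 0.45), Fcgbp 0.16 (SE 0.35), Muc2 0.06 (SE 0.28) and Clca1 -0.14 (SE 0.32). Without WT replicate 1 the values for Tff3 and Spink4 were 1.21 and 1.49, and leaving out WT replicate 2 gave 0.29 and 0.40. For Tff3 and Spink4 the groups did not overlap, as for 41.8% of all genes, 11.2% higher and 30.6% lower in APC-KO.

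Other genes with the widest separation between genotypes also missed the threshold, though some passed it under alternatives. Mt1, a metallothionein that binds zinc and copper, had WT values of 54.7 and 24.2 CPM and APC-KO values of 93.7 and 157 CPM, or 1.78 as a log2 fold change (SE 0.40, adjusted p = 0.515, edgeR). Fabp1, a fatty acid binding protein of enterocytes, had WT values of 23.7 and 18.9 CPM and APC-KO values of 96.5 and 40.6 CPM (log2 fold change 1.75), while the summed enterocyte markers were at 65.8 and 60.6 CPM for WT and 172 and 125 CPM for APC-KO. Their part in this value was not tested. Without APC-KO replicate 1 the value for Fabp1 was 0.99. Rnase1 was at 1.55, Rps29 at 1.61 and Rps27 at 1.45, and Rps29 was at 0.81 without APC-KO replicate 2. Of the alternatives run, Rnase1 passed in 7 of 13, Mt1 in 5 of 13, Fabp1 in 5 of 12, Rps27 in 4 of 12 and Rps29 in 1 of 12.

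Lower values in APC-KO were seen for Casc4, at 67.3 and 65.8 CPM for WT and 22.5 and 3.31 CPM for APC-KO (log2 fold change -2.61, SE 0.61, adjusted p = 0.515, edgeR). AY761184, a defensin with near-identical copies in the genome whose counts are therefore uncertain, had WT values of 147 and 173 CPM and APC-KO values of 35.9 and 52.6 CPM (-1.71, SE 0.19, adjusted p = 0.102, edgeR). The other 3 were interferon-induced: Ifit1bl1 (-2.00), Ifit1 (-1.86) and Isg15 (-1.28). AY761184 passed in 8 of 12 alternatives, Ifit1bl1 in 7, Casc4 in 6, Ifit1 in 4 and Isg15 in 3 of 13 each. With single libraries left out, Casc4 was at -4.26 when APC-KO replicate 1 was dropped and at -1.40 when the other APC-KO library was. The values ran from -2.41 to -0.91 for Ifit1 and from -1.84 to -0.31 for Isg15, in both the weakest being without WT replicate 1.

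Of the lists, 60 of 76 ribosomal protein genes were above 0, with a median log2 fold change of 0.45 that ranged from 0.26 to 0.59 over the settings tried. All genes tested had a median of 0.00. Of 10 tested Wnt targets 8 were above 0 (median 0.44), and of 14 stem cell genes 13 were (median 0.39). Of 16 cell cycle exit genes 15 were below 0 (median -0.31). No gene of these 4 lists passed the threshold. Interferon genes had a median of 0.16, with 21 of 34 above 0 and 0 past the threshold (9 at an unadjusted p under 0.05, edgeR). Leaving out WT replicate 1 moved that median to 0.58, leaving out WT replicate 2 to -0.22 and leaving out APC-KO replicate 1 to -0.26. The Paneth list had a median of 0.18, and -0.10 without APC-KO replicate 2, while the 5 defining Paneth markers were all above 0 and summed to 6751 and 5265 CPM for WT and 7239 and 14796 CPM for APC-KO.

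The difference of the genotype effects between GOBLET-PRE and GOBLET was tested in 1 fit on the 8 sums, with the library as a block. In edgeR, 13 of 8644 genes (0.150%) passed, 2 higher (0.0231%) and 11 lower (0.127%), and 438 had an unadjusted p under 0.05. A lower value means that the log2 ratio of APC-KO to WT was lower in GOBLET-PRE than in GOBLET. GOBLET of APC-KO replicate 1 held 28 cells. Leaving out WT replicate 1 or 2 gave 5 or 4 genes, leaving out APC-KO replicate 2 gave 198, and the DESeq2 Wald test gave 4. The leading genes were interferon-induced: of 32 interferon genes tested, 25 were below 0 and 4 of these past the threshold, with a median of -0.48 against 0.00 for all genes and a range of -0.79 to -0.26 over the settings tried.

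Ifit1, which blocks translation of viral RNA (ENSMUSG00000034459, chromosome 19, 34640871 to 34650009), had WT values of 54.4 and 20.8 CPM and APC-KO values of 12.9 and 7.95 CPM in GOBLET-PRE. In GOBLET it had WT values of 29.6 and 14.9 CPM and APC-KO values of 191 and 38.7 CPM. The genotypes did not overlap in either name and stood in opposite order. The difference was -3.42 (SE 0.37, adjusted p = 8.58e-17, edgeR). Rsad2, the antiviral enzyme viperin (ENSMUSG00000020641, chromosome 12, 26442746 to 26456452), had WT values of 64.9 and 33.7 CPM and APC-KO values of 26.4 and 23.4 CPM in GOBLET-PRE, and 9.86, 6.37, 97.9 and 40.8 CPM in GOBLET. Its difference was -3.44 (SE 0.41, adjusted p = 4.23e-13, edgeR). Ifit1bl1, a relative of Ifit1 (ENSMUSG00000079339, chromosome 19, 34592891 to 34601956), had 55.9, 48.6, 14.0 and 11.04 CPM in GOBLET-PRE and 76.4, 65.8, 245 and 62.2 CPM in GOBLET, a difference of -2.42 (SE 0.31, adjusted p = 2.59e-11, edgeR). Ifit1bl1 overlapped between genotypes in GOBLET, where the low APC-KO library was below both WT libraries.

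These 3 genes kept their call under each of the 13 alternatives run, with values from -4.13 to -2.76 for Ifit1, -4.45 to -3.18 for Rsad2 and -3.20 to -1.85 for Ifit1bl1, and a highest adjusted p of 0.0166 over edgeR and DESeq2. The spread in this fit is borrowed across genes, since few sums are left after the terms are fitted, and the UMIs behind the GOBLET values were few, at 8 to 40 for Rsad2 and 21 to 39 for Ifit1.

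The promoters of these 3 genes and of Isg15 are shown. These 4 are the genes of the interferon list past the threshold in the test of the difference. Ddx60, Herc6, Trim30a and Slfn5 also passed, but are outside that list and their promoters are not shown. The 200 bases before the RefSeq start site are given 5′ to 3′ on the gene's strand (GRCm38.p6), and capitals mark matches, on either strand, to the core of the interferon-stimulated response element, searched as GAAA, any 2 bases, and GAAA again. The windows are chr19:34640689-34640888 (plus strand) for Ifit1, chr12:26456453-26456652 (minus strand) for Rsad2, chr19:34601969-34602168 (minus strand, the upstream of 2 listed starts) for Ifit1bl1 and chr4:156200819-156201018 (minus strand) for Isg15.
Ifit1: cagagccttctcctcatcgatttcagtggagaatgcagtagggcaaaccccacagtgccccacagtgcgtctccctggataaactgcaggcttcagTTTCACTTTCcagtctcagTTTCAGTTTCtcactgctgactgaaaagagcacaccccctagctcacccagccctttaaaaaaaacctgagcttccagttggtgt
Rsad2: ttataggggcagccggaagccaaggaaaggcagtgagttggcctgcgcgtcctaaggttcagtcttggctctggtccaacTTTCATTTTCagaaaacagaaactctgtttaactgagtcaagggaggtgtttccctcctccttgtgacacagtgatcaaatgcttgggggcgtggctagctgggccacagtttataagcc
Ifit1bl1: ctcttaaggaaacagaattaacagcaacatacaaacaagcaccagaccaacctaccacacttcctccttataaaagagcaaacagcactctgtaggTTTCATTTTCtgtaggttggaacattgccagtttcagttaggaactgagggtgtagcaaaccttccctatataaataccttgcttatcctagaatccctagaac
Isg15: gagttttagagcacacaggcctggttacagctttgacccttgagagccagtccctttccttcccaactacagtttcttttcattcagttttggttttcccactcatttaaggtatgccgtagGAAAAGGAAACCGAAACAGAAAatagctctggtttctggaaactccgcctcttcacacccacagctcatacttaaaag
Ifit1 has 2 matches, Rsad2 and Ifit1bl1 have 1 each, and Isg15 has 3 that overlap one another. In windows from 250 bases before to 50 after the start, this core was found for 15 of the 26 interferon genes with a RefSeq entry (57.7%, of 36 listed) and for 1079 of 27025 genes (3.99%). A match is a description of the letters and not of binding. The sterol regulatory letters TCACNCCAC, searched on both strands in the same way, were found for 1 of 19 sterol genes with an entry, Hmgcs1, and for 1.44% of all genes.

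The other interferon-related genes past the threshold lost the call in some settings. Isg15 had a difference of -1.42 (SE 0.26, adjusted p = 6.64e-05, edgeR), from 206, 76.5, 69.0 and 42.6 CPM in GOBLET-PRE and 206, 86.4, 358 and 109 CPM in GOBLET. Without WT replicate 1 or WT replicate 2 it did not pass, at -1.24 and -1.60, nor did it with cells thinned to 2000 UMIs or in the DESeq2 Wald test. Ddx60 (-1.33), Herc6 (-1.72), Trim30a (-2.58) and Slfn5 (-3.31) also lost it in at least 1 setting. With WT replicate 1 left out none of the 4 passed. With WT replicate 2 left out Ddx60, Herc6 and Slfn5 did not pass, and with APC-KO replicate 1 left out Herc6, Trim30a and Slfn5 did not.

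Stress and growth genes were also among the 13. Jun had a difference of -1.53 (SE 0.37, adjusted p = 0.0197, edgeR) and Fosb, its partner in the AP-1 factor, of -2.12. In GOBLET-PRE, Fosb had WT values of 695 and 964 CPM and APC-KO values of 553 and 829 CPM. In GOBLET it had WT values of 30.8 and 41.8 CPM and APC-KO values of 402 and 69.3 CPM, so the largest value came from the 28 cells of APC-KO replicate 1. Without that library the differences were -0.56 for Jun and -0.73 for Fosb and neither passed, nor did they when either WT library was left out. Areg had a difference of -1.99 (SE 0.33, adjusted p = 4.03e-06, edgeR), with 19.7, 44.6, 162 and 49.9 CPM in GOBLET, and it did not pass without WT replicate 1 or WT replicate 2. The 2 genes above 0 were Chgb, a granule protein of enteroendocrine cells (2.14), and 2010109I03Rik (4.24), which had 1, 1, 0 and 8 UMIs in GOBLET-PRE and 12, 178, 0 and 42 UMIs in GOBLET, so its fitted value is no measure of size. Chgb had 151, 30.2, 19.1 and 70.5 CPM in GOBLET-PRE. The enteroendocrine markers, Chgb among them, summed to 206, 40.5, 24.1 and 94.7 CPM in the same libraries, and their part in the result was not tested.

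**Figure D5:**
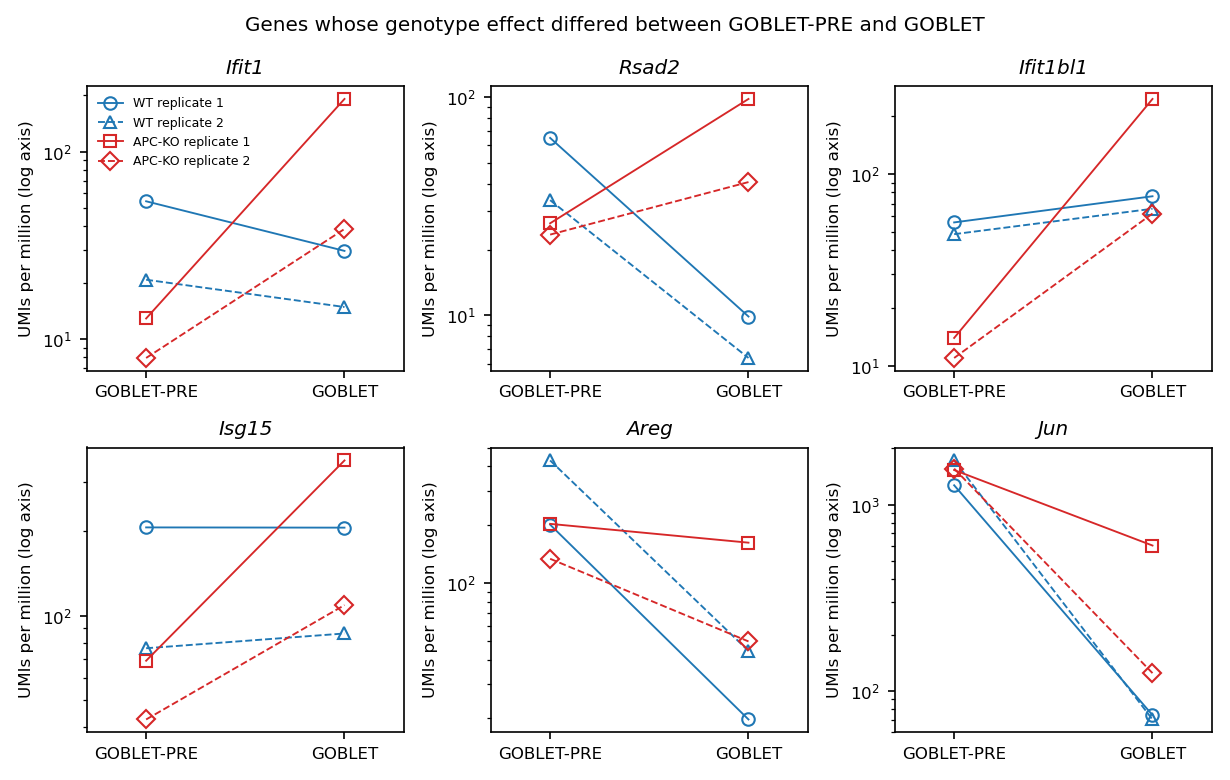
CPM (log axis) of 6 genes in GOBLET-PRE and GOBLET of each library, WT in blue and APC-KO in red, replicate 1 solid and replicate 2 dashed, with lines joining the 2 names of a library. For Ifit1 and Rsad2 both APC-KO lines go up from GOBLET-PRE to GOBLET and both WT lines go down, and for Jun and Areg the APC-KO replicate 1 line is the highest in GOBLET.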

How the data were processed

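Single-cell libraries were prepared with the 10x 3′ v3.1 chemistry per the labels' protocols. The deposited matrices hold raw UMI counts per gene and barcode, unfiltered, made with Cell Ranger 3.0.2, STAR and mm10 per the submitters' processing notes. The counts of UMIs and genes per kept cell, the percent of mitochondrial UMIs and the cell type names come from tables deposited by the authors, and how cells were kept and named is not given in the sources used here. Matrix totals differed from the authors' tabulated totals by at most 17 UMIs per cell. Doublets were not searched for.

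UMIs were summed per library and name. Names were compared within a library on log2(CPM + 10), for genes with at least 10 CPM on average in either name and libraries with at least 20 cells of both names, and a gene was called when the difference reached 2-fold the same way in every library used. Genotypes were compared with edgeR 4.0.16 (TMM, filterByExpr, quasi-likelihood test, Benjamini-Hochberg at 0.05) in R 4.3.3, and the difference of genotype effects in 1 fit over both names with the library as a block. On simulated data, 200 genes were given a log2 change of 2. In the genotype fit 196 of 200 were called (10272 genes, 5.31% of calls unchanged genes). In the fit of the difference 130 of 200 were called (8644 genes, 2.26%). The counts were drawn gene by gene from means shared by the libraries of a name, without shifts common to a library. These shares therefore do not give the recovery in the real libraries. Cells were thinned to 2000 UMIs for spread within the name. DESeq2 1.42.0, Python 3.11.15, numpy 2.4.6, scipy 1.17.1 and pandas 2.3.3 were also used. Alternatives covered the added CPM, normalization, filter, thinning, free RNA (5% of UMIs, profile of barcodes with few UMIs), each library left out and the replicate block.

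Named genes were chosen by rule. Between names they were the 10 largest each way by the least favourable library (at least 50 CPM). To these came the 10 with the largest margin among genes highest in GOBLET-PRE, and the 10 with the highest variance over mean. Between genotypes they were the 5 markers, each gene past the threshold and the 5 largest each way without overlap (at least 20 CPM). List examples were among the 4 most abundant members. All 13 genes past the threshold for the difference of effects are named, although the rule stops at 5 each way. Model symbols were counted and not named apart from 1 of those 13. The members and gene lists were chosen with earlier results of these data known, and 4 lists (sterol, fatty acid, EGF ligand and ribosomal protein genes) after values were seen. Some items are not reported here.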

Additional observations from a re-analysis of the deposited data

Results flagged for a closer look

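For 13 genes the effect of the genotype differed between GOBLET-PRE and GOBLET in the test of that difference (edgeR, Benjamini-Hochberg adjusted). The values are the log2 fold change of APC-KO over WT in GOBLET-PRE minus that in GOBLET. They were -3.42 for Ifit1, -3.44 for Rsad2 and -2.42 for Ifit1bl1, which passed in all settings run. They were -1.42 for Isg15, -1.335 for Ddx60, -1.72 for Herc6, -2.58 for Trim30a and -3.31 for Slfn5, all interferon-related. The immediate early genes had -1.53 for Jun and -2.12 for Fosb, and the EGF receptor ligand Areg had -1.99. Chgb was at 2.14 and 2010109I03Rik at 4.24. The 28 GOBLET cells of APC-KO replicate 1 gave the highest GOBLET value of all 4 libraries for all 11 genes below 0. Herc6, for example, had 162 CPM there and 45.9 CPM or less in GOBLET of the other libraries. The part of these cells in the results beyond the values without that library was not tested.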

How the results depend on the processing

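Only 2 libraries per genotype, 1 of them with 356 kept cells, limit every genotype value. Between GOBLET-PRE and GOBLET, 676 genes (570 higher, 106 lower) were called with 1 CPM added in place of 10, and 333 to 429 with a library left out. Against GP, 82 (59 higher, 23 lower) were called with 1 CPM added, and 35 to 60 with a library left out, 60 without APC-KO replicate 2. Genes highest in GOBLET-PRE numbered 63 to 97 with a library left out, the highest without APC-KO replicate 1, and 93 without the other APC-KO library. The genotype count of 1 became 280 with no filter beyond 1 count, 15 with cells thinned to 2000 UMIs, 38 in the DESeq2 Wald test and 7 to 64 with a library left out. It was 0 in edgeR with free RNA subtracted at 5%, with 787 genes at an unadjusted p under 0.05. With the replicate block it was 110 (85 higher, 25 lower), and same-numbered libraries did not deviate together (r = -0.04 over 10272 genes, 2 pairs), so the numbers are not shown to pair samples. The log2 fold changes of the markers ranged, with a library left out, from -0.058 (without WT replicate 2) to 0.19 for Muc2, from -0.046 (without APC-KO replicate 2) to 0.33 for Fcgbp and from -0.40 to 0.16 (without WT replicate 2) for Clca1, which was 0.05 without APC-KO replicate 2. Those of Tff3 ran from 0.29 to 1.21 and of Spink4 from 0.40 to 1.49. The count of 13 for the difference of effects became 5 with thinned cells, 21 with free RNA subtracted, 4 in the DESeq2 Wald test and 4 to 198 with a library left out, 198 without APC-KO replicate 2. Chgb ranged from -0.92 (without WT replicate 2) to 3.94. The share difference ranged from -12.3 points (without APC-KO replicate 1) to 22.1 points. The cause of these differences was not tested.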
